A study of Mus musculus with 24 samples.

Results

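Potassium channel genes were followed across 3 regions of the mouse brain and 2 genotypes on 24 expression arrays. The genes are all those whose symbol on the array platform begins with Kcn, leaving out the auxiliary subunits Kcnip, Kcnab and Kcnmb. This gave 79 genes, each with 1 measured row, of 19505 gene symbols in all. Of the 79, 77 encode channel subunits; Kcnq1ot1 is a long noncoding RNA and Kcnrg a regulator of channel assembly. They were sorted into 13 subfamilies. The rule uses the symbol and no measured value.

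The groups were 3 tissues (cerebral cortex, hippocampus, cerebellum) of 4 wild-type (WT) mice and of 4 mice whose glutamine synthetase gene was knocked out (KO) in the liver, 1 array for each region of each animal. Glutamine synthetase binds ammonia to glutamate, and the study's title concerns what high blood ammonia does to transcripts and proteins in the brain. The knockout is given as lying in the liver, and the level of the enzyme in these brain samples was not examined here. The sources used here do not give strain, age, sex or the driver of the deletion, and the labels name no treatment. Each value is a deposited log2 intensity, and a difference of 1 on this scale is a 2-fold difference of deposited values. How such a fold relates to the fold of the RNA itself was not tested. In pieces of tissue, fewer cells of a type and less RNA per cell cannot be told apart.

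Potassium channels set the resting potential of neurons, repolarise the action potential and limit the rate of firing. Voltage-gated subunits (Kcna, Kcnb, Kcnc, Kcnd, Kcnh, Kcnq) open on depolarisation, inward rectifiers (Kcnj) and tandem-pore channels (Kcnk) carry current near rest, and Kcnn and Slo-type channels respond to calcium or sodium inside the cell. In the cerebellum, fast-firing Purkinje cells and very numerous small granule cells use sets of these channels that differ from those of the pyramidal neurons of cortex and hippocampus. Astrocytes use Kcnj10 and Kcnj16 to clear potassium, a task often discussed in connection with raised ammonia.

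The arrays carried the marker genes of their regions. The mean over 13 granule and Purkinje cell genes was 12.94 to 14.48 in the 8 cerebellum arrays and 8.60 to 8.93 in the other 16. The mean over 10 neocortex genes was 12.50 to 13.29 in cortex and at most 12.28 elsewhere, and that over 13 hippocampus genes was 11.08 to 11.83 in hippocampus and at most 10.03 elsewhere. A few arrays stood apart. In cortex, KO 1 and KO 4 read above all 6 other arrays for 14 of 15 olfactory bulb markers (list means 12 and 11.4, against 8.28 to 8.86), and for 5 of 10 interneuron markers (12.37 to 12.40, against 11.61 to 11.67). These lists share Dlx1 and Dlx2, so they are not separate readings. In cerebellum, KO 3 read highest for 12 of 17 brainstem and spinal cord markers (9.28, against 7.44 to 7.82) and for 11 of 11 oligodendrocyte markers (14.09, against 11.98 to 12.57), and lowest in the mean of the granule and Purkinje cell genes. It was also highest in the mean of the neocortex markers (10.69, against 9.80 to 10.04). WT arrays varied too. Hippocampus WT 3 had a mean of 11.24 over 12 thalamus and midbrain markers, against 9.25 to 10.97 in the other hippocampus arrays. Cerebellum WT 2 had a mean of 11.85 over 7 choroid plexus markers, against 8.77 to 11.43 in the other cerebellum arrays. Results that rest on cortex KO 1 and KO 4 or on cerebellum KO 3 are given with and without them. WT arrays were left out only 1 at a time.

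The first question was how potassium channel genes differ between regions in WT animals. The largest differences set the cerebellum apart from both other regions. Its arrays read far lower for Kcnt2, Kcnv1, Kcnh5, Kcnc2 and Kcnf1, and far higher for Kcnk10, Kcnj12, Kcnd2, Kcnc1 and Kcnk1. A gene was called where the adjusted p of the limma fit was under 0.05 and the difference at least 2-fold. Between cortex and hippocampus 6 of the 79 genes were called, where 1.36% of all rows were, all 6 lower in hippocampus. At that adjusted p with no fold minimum there were 13, and the share of all rows was not computed for that count. Any difference between the regions, an F test with no fold minimum, was called for 50 of the 79, or 63.3%, where 40.2% of all rows were called.

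Between cerebellum and cortex of WT animals, 32 of the 79 were called, or 40.5%, where 9.98% of all rows were. Of these 23 were lower in cerebellum (5.47% of all rows) and 9 higher (4.51% of all rows). Between cerebellum and hippocampus, 29 were called, or 36.7%, where 9.83% of all rows were; 19 were lower in cerebellum (5.85% of all rows) and 10 higher (3.98% of all rows). Both comparisons use the same cerebellum arrays. Between hippocampus and cortex, 6 were called, or 7.59%, where 1.36% of all rows were; all 6 were lower in hippocampus (0.618% of all rows). The 4 cerebellum arrays did not overlap the 4 cortex arrays for 42 of the 79, or 53.2%, where 33.7% of all rows did not. The median size of the difference over the 79 genes was 0.58 between cerebellum and cortex, 0.59 between cerebellum and hippocampus and 0.26 between hippocampus and cortex, against 0.22, 0.22 and 0.15 over all rows. The signed medians over the 79 were near 0, at -0.14, -0.06 and -0.16.

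**Figure D1:**
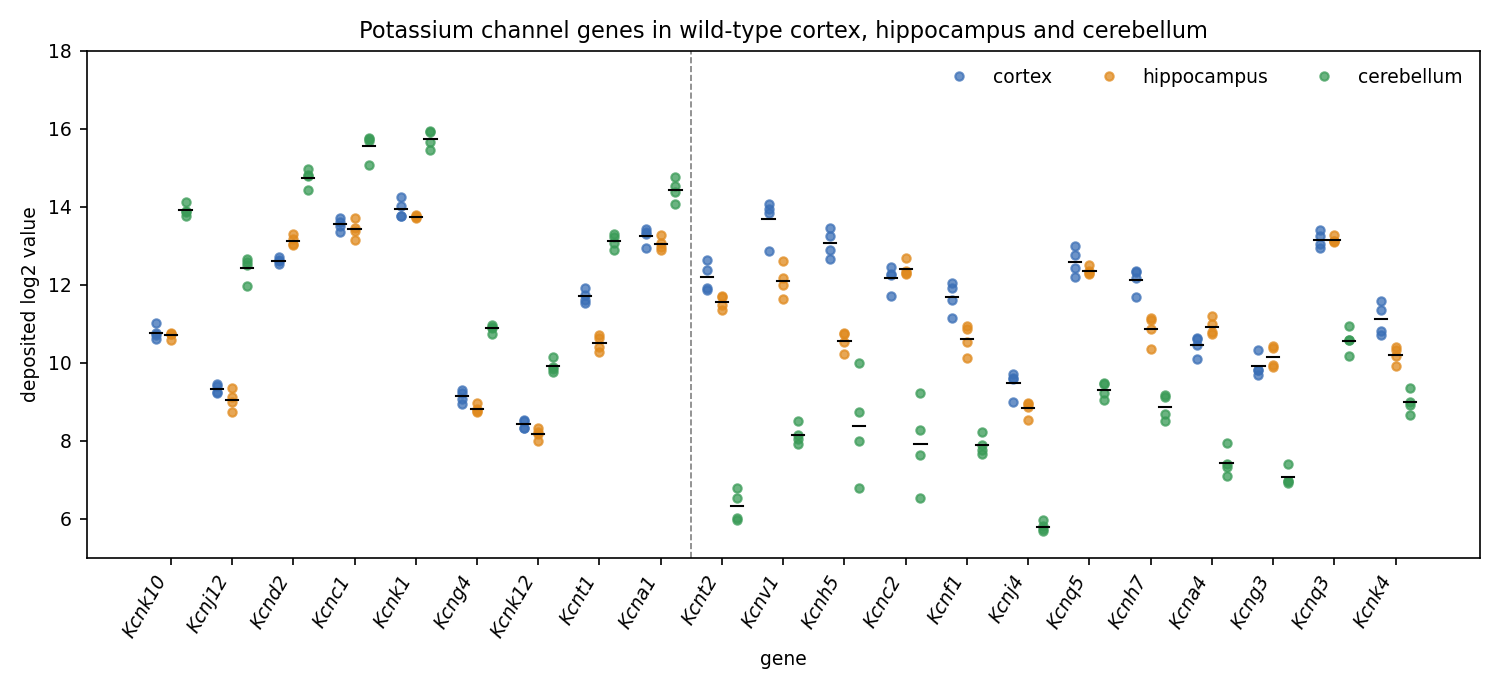
Deposited log2 values (vertical axis) of 21 potassium channel genes (horizontal axis) in WT cortex, hippocampus and cerebellum. Each point is 1 array and each bar the mean of 4; the 9 genes left of the dashed line were higher in cerebellum than in cortex and the 12 to its right, those with the largest differences downward, were lower. For each gene shown the 4 cerebellum arrays lie apart from the 4 cortex arrays.

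Tandem-pore channels, which carry the background potassium leak, showed the largest difference upward between cerebellum and cortex. Kcnk10, a leak channel gated by lipids and stretch, read 13.87, 13.76, 13.89 and 14.12 in the WT cerebellum arrays, 10.75, 10.70, 10.60 and 11.01 in cortex and 10.73, 10.59, 10.76 and 10.74 in hippocampus. The cerebellum arrays lie above every cortex and hippocampus array, which overlap each other. The difference from cortex was 3.15 (SE 0.23, with n = 4 arrays in each group, adjusted p = 4.89e-11), or 8.85-fold, and that from hippocampus 3.20. Its nearest relatives went the other way: Kcnk2 was lower in cerebellum than in cortex by 1.77 (SE 0.17) and Kcnk4 by 2.13 (SE 0.23), each with the groups apart. Kcnk1, a weak inward-rectifying leak channel, read 15.95, 15.45, 15.66 and 15.91 in cerebellum against 13.75 to 14.25 in cortex, a difference of 1.80 (SE 0.16, adjusted p = 1.56e-09). Kcnk12 was also higher, by 1.49. The acid-sensitive Kcnk9 differed little between cerebellum and cortex (0.26, SE 0.13, adjusted p = 0.124), and was above hippocampus by 0.81 (SE 0.13), under the 2-fold minimum. In all, 5 of 14 Kcnk genes were called between cerebellum and cortex, where 9.98% of all rows were.

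Among the Shal-type A channels, which damp back-propagating signals in dendrites, Kcnd2 read 14.79, 14.42, 14.80 and 14.97 in WT cerebellum, 12.60, 12.70, 12.53 and 12.62 in cortex and 13.04, 13.16, 13.31 and 13.01 in hippocampus. The 3 regions do not overlap. The difference between cerebellum and cortex was 2.14 (SE 0.21, n = 4 per group, adjusted p = 9.44e-09), or 4.39-fold. Kcnd3, of the same subfamily, differed by -0.11 (SE 0.18, adjusted p = 0.701).

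To show the sequence in front of the genes that differ most in each direction, the 250 bases before the start are given for 4 genes. They are the 2 genes called higher and the 2 called lower between WT cerebellum and cortex with the largest difference, among those whose window begins at the gene's outermost annotated start and lies in no other gene. The windows are from RefSeq, build GRCm38.p6, and run 5′ to 3′ on the strand of the gene. Capitals mark matches to the GC box GGGCGG on either strand. Kcnk10 lies at chr12:98578214-98578463 on the minus strand, Kcnd2 at chr6:21215096-21215345 on the plus strand, Kcnh5 at chr12:75177333-75177582 on the minus strand and Kcnf1 at chr12:17176889-17177138 on the minus strand.
Kcnk10: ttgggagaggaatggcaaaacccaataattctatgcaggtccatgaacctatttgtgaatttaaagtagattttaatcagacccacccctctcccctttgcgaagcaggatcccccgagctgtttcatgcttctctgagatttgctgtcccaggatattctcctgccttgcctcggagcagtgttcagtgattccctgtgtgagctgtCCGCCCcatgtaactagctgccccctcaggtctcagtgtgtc
Kcnd2: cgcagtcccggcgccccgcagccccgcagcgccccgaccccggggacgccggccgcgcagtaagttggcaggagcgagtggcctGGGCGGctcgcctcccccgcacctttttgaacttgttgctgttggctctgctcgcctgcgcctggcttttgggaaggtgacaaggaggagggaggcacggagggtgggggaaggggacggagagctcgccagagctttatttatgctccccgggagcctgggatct
Kcnh5: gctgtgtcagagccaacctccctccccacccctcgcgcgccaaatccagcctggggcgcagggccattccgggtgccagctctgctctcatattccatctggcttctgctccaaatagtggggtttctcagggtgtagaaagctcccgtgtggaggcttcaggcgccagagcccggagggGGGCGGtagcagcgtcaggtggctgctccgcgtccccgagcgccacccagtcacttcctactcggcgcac
Kcnf1: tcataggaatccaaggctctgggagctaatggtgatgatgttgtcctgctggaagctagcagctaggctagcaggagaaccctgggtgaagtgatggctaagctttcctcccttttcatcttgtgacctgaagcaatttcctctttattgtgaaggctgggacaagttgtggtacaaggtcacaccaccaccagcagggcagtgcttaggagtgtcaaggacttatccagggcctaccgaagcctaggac

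The GC box was matched 42 bases before the start of Kcnk10 (as CCGCCC), 166 before Kcnd2 and 70 before Kcnh5, and not in the window of Kcnf1. TATAAA, the E-box CAGCTG and the cyclic AMP element TGACGTCA, searched on both strands, had no match in the 4 windows. The windows differ in base composition within each direction. Of the pair that is higher in cerebellum, Kcnk10 has 50% GC and 4 CpG and Kcnd2 68.8% GC and 22 CpG. Of the pair that is lower, Kcnh5 has 65.6% GC and 16 CpG and Kcnf1 51.2% GC and 1 CpG. Over the 59 potassium channel genes with a window, 49.2% held a GC box, 3.39% TATAAA, 23.7% the E-box and 0% the cyclic AMP element. Over all 32851 windows of this length the shares were 32.7%, 12.4%, 13% and 1.55%. The 2 sets are not alike: each channel gene entered with its outermost window only, and the full set was not reduced in this way. The median GC was 58.8% in the channel gene windows and 52.4% in all windows. The part of base composition in these shares was not tested. These are matches of letters and not measured sites of binding.

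Shaw-type channels allow neurons to fire at high rates. Kcnc1 read 15.74, 15.08, 15.68 and 15.76 in WT cerebellum, 13.61, 13.50, 13.35 and 13.72 in cortex and 13.37, 13.45, 13.71 and 13.14 in hippocampus. The cerebellum was above cortex by 2.02 (SE 0.16, adjusted p = 2.31e-10, n = 4 per group). Kcnc2, the relative used by fast-spiking interneurons of the forebrain, went the other way: it read 6.53, 8.27, 9.21 and 7.64 in cerebellum, against 12.28, 12.25, 11.70 and 12.45 in cortex. The difference was -4.26 (SE 0.42, adjusted p = 8.2e-09), or 19.2-fold, and the cerebellum arrays spread over more than those of any other group of WT animals for this gene. Kcnc4 was lower in cerebellum by 1.11 (SE 0.15). All 3 measured Shaw-type genes were thus called between cerebellum and cortex (9.98% of all rows were), 1 higher and 2 lower.

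Shaker-type channels sit on axons and terminals. Kcna1, a low-threshold channel abundant at the terminals of cerebellar basket cells, read 14.38, 14.07, 14.52 and 14.77 in WT cerebellum and 12.93 to 13.42 in cortex, a difference of 1.19 (SE 0.17, adjusted p = 3.53e-06). Its frequent partner Kcna2 was higher by 0.50 (SE 0.15, adjusted p = 0.0103) than in cortex and by 0.97 than in hippocampus, both under the 2-fold minimum. Kcna4, which gives a rapidly inactivating current, read 7.09, 7.39, 7.93 and 7.31 in cerebellum, 10.09 to 10.63 in cortex and 10.74 to 11.20 in hippocampus. It was lower in cerebellum than in cortex by 3.01 (SE 0.29, adjusted p = 4.62e-09), and Kcna3 by 1.12 (SE 0.14). Of 8 Kcna genes, 3 were called between cerebellum and cortex, where 9.98% of all rows were.

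Silent subunits (Kcnf, Kcng, Kcns, Kcnv) form no channel alone and alter the Shab-type channels they join. All 10 differed between the regions by the F test, where 40.2% of all rows did. Between cerebellum and cortex 8 of 10 were called, 7 of them lower, where 9.98% of all rows were called. Kcnv1 read 7.90, 8.49, 8.15 and 8.04 in WT cerebellum, 12.17, 11.98, 11.62 and 12.61 in hippocampus and 14.06, 13.94, 13.84 and 12.86 in cortex. The 3 regions form 3 separate steps: cerebellum was below cortex by 5.53 (SE 0.24, adjusted p = 2.03e-15), or 46.1-fold, and hippocampus below cortex by 1.58 (SE 0.24, adjusted p = 0.000105). Kcnf1 read 7.66, 7.75, 7.89 and 8.23 in cerebellum, 10.87, 10.52, 10.11 and 10.93 in hippocampus and 12.04, 11.60, 11.91 and 11.15 in cortex. Its steps were smaller and again apart: cerebellum was below cortex by 3.79 (SE 0.23) and hippocampus below cortex by 1.07 (SE 0.23, adjusted p = 0.00319). The last of these was under 2-fold without 1 of the arrays cortex WT 1, cortex WT 3 or hippocampus WT 3 (-0.95, -0.99 and -0.90). Kcng3 and Kcns2 were lower in cerebellum than in cortex by 2.84 and 1.49. Kcng4 was the silent subunit called higher: it read 10.90, 10.74, 10.97 and 10.92 in cerebellum and 8.95 to 9.29 in cortex, a difference of 1.75 (SE 0.13, adjusted p = 6.33e-11). Kcnb2, the measured Shab-type subunit, was lower by 1.96 (SE 0.35).

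The Kcnh genes encode the EAG, ERG and ELK channels, which open slowly or recover from inactivation in ways that shape spike trains. Kcnh5 read 13.25, 13.46, 12.65 and 12.89 in WT cortex, 10.21, 10.54, 10.76 and 10.73 in hippocampus and 6.79, 8.74, 9.99 and 7.99 in cerebellum. Each region is apart from the next, by -2.50 for hippocampus minus cortex (SE 0.50, adjusted p = 0.00183) and -4.69 for cerebellum minus cortex (SE 0.50, adjusted p = 2.55e-08). Kcnh7 read 11.67 to 12.36, 10.35 to 11.14 and 8.49 to 9.17 in cortex, hippocampus and cerebellum. It followed the same order, with -1.27 for hippocampus minus cortex and -3.27 for cerebellum minus cortex. Kcnh4 separated cortex from both other regions: it read 9.36 to 9.83 in cortex, 7.84 to 8.32 in hippocampus and 7.28 to 7.81 in cerebellum. Of 8 Kcnh genes, 4 were called between cerebellum and cortex, all lower, where 5.47% of all rows were called lower. Of the 6 genes called between hippocampus and cortex, 3 were Kcnh genes. The other 3 were Kcnv1, Kcnf1 and Kcnt1.

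Kcnq channels carry the M current, which acetylcholine shuts off. Kcnq5 read 9.47, 9.03, 9.46 and 9.22 in WT cerebellum and 12.20 to 13.00 in cortex, and was lower by 3.30 (SE 0.20, adjusted p = 8.43e-13). Kcnq3 was lower by 2.59 (SE 0.18, adjusted p = 1.08e-11), with 10.18 to 10.93 in cerebellum and 12.95 to 13.39 in cortex. Neither was called between hippocampus and cortex. Kcnq1 overlaps its antisense transcript Kcnq1ot1, and signal of these loci may not be fully separable.

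The sodium-activated channels split. Kcnt2 read 6.01, 5.95, 6.78 and 6.53 in WT cerebellum, 12.38, 12.64, 11.92 and 11.86 in cortex and 11.68, 11.72, 11.49 and 11.36 in hippocampus. The cerebellum minus cortex difference was -5.88 (SE 0.28, n = 4 per group, adjusted p = 1.34e-14). The cerebellum values lie under 7.07, the 25th percentile of all row means, where signal over background is low; the cortex mean exceeded that level by 5.13. Kcnt1 read 13.08, 12.89, 13.22 and 13.31 in cerebellum, 11.54 to 11.92 in cortex and 10.27 to 10.70 in hippocampus. It was higher in cerebellum than in cortex by 1.43 (SE 0.20), and hippocampus minus cortex was -1.20 (SE 0.20, adjusted p = 0.00033).

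Inward rectifiers also split. Kcnj12, a strong rectifier that holds the resting potential, read 12.67, 11.96, 12.57 and 12.51 in WT cerebellum, 9.21 to 9.45 in cortex and 8.73 to 9.35 in hippocampus. The cerebellum was above cortex by 3.10 (SE 0.25, adjusted p = 1.72e-10), or 8.58-fold, and above hippocampus by 3.38, or 10.4-fold. Kcnj4, another strong rectifier, read 5.80, 5.74, 5.67 and 5.96 in cerebellum and 8.99 to 9.71 in cortex, lower by 3.68 (SE 0.20, adjusted p = 1.53e-13), and Kcnj2 was lower by 1.37. Both are dim in cerebellum, and their cortex means exceeded 7.07 by 2.40 and 0.81. Of the G protein-gated subunits, Kcnj9 was higher in cerebellum than in hippocampus by 1.30 (SE 0.22, adjusted p = 4.02e-05), while Kcnj3 and Kcnj6 were not called in any pair of regions. The glial Kcnj10 read 13.90 to 15.30 in cortex, 14.17 to 15.08 in hippocampus and 14.29 to 14.89 in cerebellum of WT animals. Those ranges overlap, and its F test gave an adjusted p of 0.985. Kcnj16, which pairs with Kcnj10, gave 0.59. Of 15 Kcnj genes, 3 were called between cerebellum and cortex, where 9.98% of all rows were.

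The Kcnn channels, of small and intermediate conductance and activated by calcium, had no call between cerebellum and cortex among 4 genes at the 2-fold minimum. Kcnn1 was below it narrowly, at -0.98 (SE 0.11, adjusted p = 7.4e-08), with 9.68 to 9.79 in cerebellum and 10.56 to 10.83 in cortex. Kcnn2 was lower in cerebellum than in hippocampus by 0.95 (SE 0.15), and Kcnn3 by 1.08. None of 5 Kcne genes, small accessory subunits, was called between any pair of regions in WT. Of the 79, 10 had a mean over all arrays under 7.07, the 25th percentile of all rows: Kcne1, Kcne3, Kcne4, Kcnh6, Kcnh8, Kcnj1, Kcnj15, Kcnk5, Kcnk16 and Kcnv2. Low values carry little signal over background. This also touches 5 of the 23 genes called lower in WT cerebellum than in WT cortex, whose cerebellum mean was under 7.07: Kcng3, Kcnj2, Kcnj4, Kcns2 and Kcnt2. Measured from 7.07 in place of the cerebellum mean, a bound set after the values were seen, 4 of the 5 were still at least 2-fold higher in cortex and Kcnj2 was not.

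**Figure D2:**
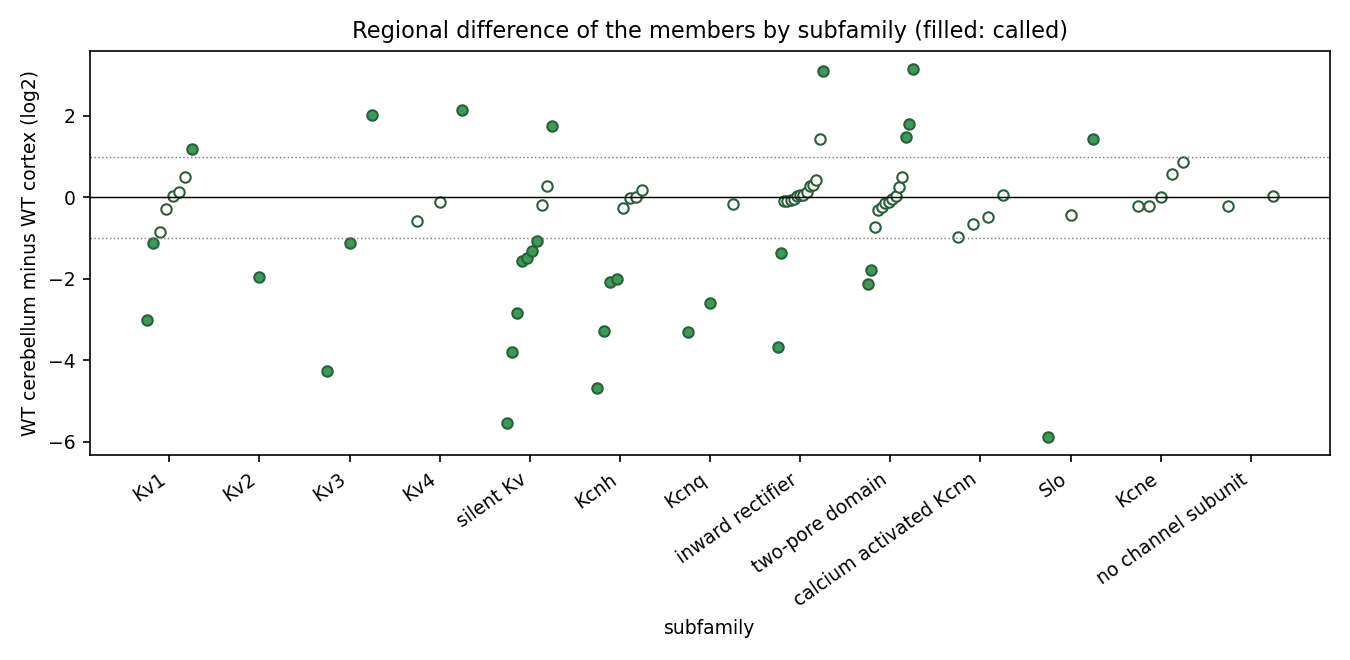
Difference between WT cerebellum and WT cortex (log2, vertical axis) of all 79 genes, grouped by subfamily (horizontal axis). Each circle is 1 gene, filled where called; dotted lines mark 2-fold. Kcnh and Kcnq genes were called only downward, 7 of the 8 called silent subunits were lower, and Kv1, Kv3, Slo, Kcnj and Kcnk genes were called in both directions.

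Auxiliary subunits and other partners of potassium channels, a list of 22 genes of which all were measured, gave 8 calls between WT cerebellum and cortex, 4 in each direction, where 9.98% of all rows were called. By the F test between regions 16 of 22 were called, where 40.2% of all rows were. The Kcnip proteins, calcium sensors that bind Kcnd channels, differed in both directions. Kcnip2 averaged 8.37 ± 0.80 (SD, n = 4) in cerebellum, 13.79 ± 0.36 in cortex and 14.25 ± 0.20 in hippocampus. That is a difference of -5.42 between cerebellum and cortex (SE 0.32, adjusted p = 7.55e-13). Kcnip1 and Kcnip4 were higher in cerebellum than in cortex by 1.84 and 1.32, and Dpp6, which speeds Kcnd channels and brings them to the surface, by 1.16. Kcnab2, a cytoplasmic subunit of Shaker-type channels, was lower by 2.40 (SE 0.25). Abcc8, the sulfonylurea receptor that joins Kcnj11, was higher by 1.62. Between hippocampus and cortex 2 of 22 were called, where 1.36% of all rows were: Dpp10 at -1.18 and Kcnab3 at -1.52.

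The same regional comparison was made in the KO animals, which share no animal with the WT groups. Between cerebellum and cortex 29 of the 79 were called, where 8.21% of all rows were, and 28 of them were also called in WT, in the same direction. All 32 genes called in WT kept their direction in KO animals; Kcna3, Kcnc4, Kcns1 and Kcns3 were called in WT alone and Kcne1l in KO alone. Between cerebellum and hippocampus 28 were called, where 8.12% of all rows were, and 27 of them were among the 29 called in WT. Between hippocampus and cortex 9 were called, where 1.84% of all rows were: the 6 of WT animals and also Kcnb2, Kcnh1 and Kcnj4. Without the cortex arrays KO 1 and KO 4 that last count was 8, but these are not simply a part of the 9. Kcnb2 then read 10.82 and 10.92 in cortex KO 2 and KO 3 against 10.14 to 10.81 in KO hippocampus. Kcnj4 read 9.39 and 9.79 against 8.39 to 8.81, and both genes were then under the 2-fold minimum. The share of all rows called without these arrays was not computed. Over the 79 genes the differences in WT and KO animals had Pearson r of 0.967, 0.961 and 0.89 for the 3 pairs of regions. These correlations are across genes, which are not independent replicates. The calls shared by WT and KO, the directions kept and the correlations were not computed over all rows. They therefore do not set potassium channel genes apart from other genes. A call in 1 genotype alone is no test of a difference between genotypes, which the next comparisons give.

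**Figure D3:**
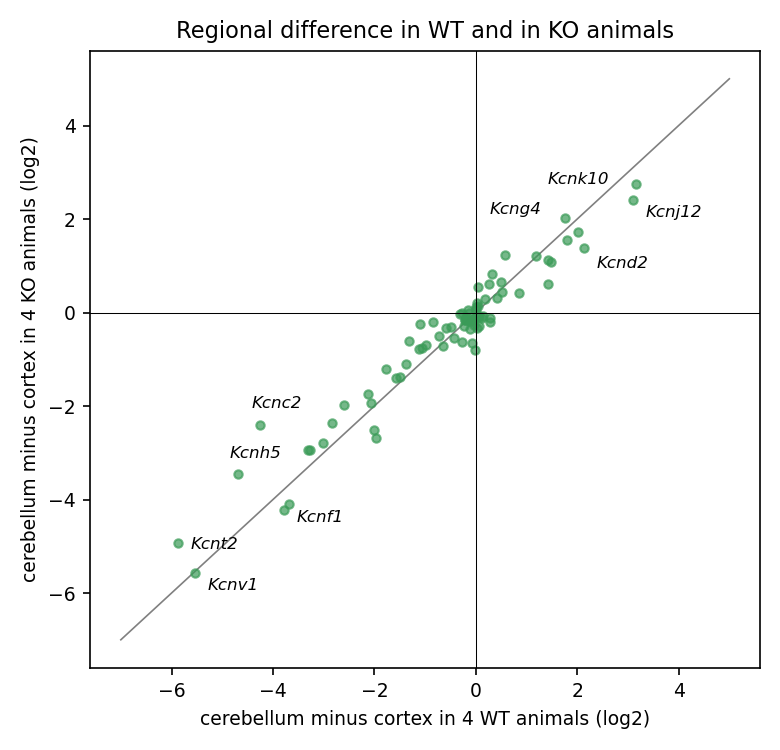
Difference between cerebellum and cortex (log2) in 4 WT animals (horizontal axis) against the same difference in 4 KO animals (vertical axis), 1 point per gene for 79 genes, with the line of equality in grey. All 32 genes called in WT have the same sign in KO, and Kcnc2 and Kcnh5 lie nearer 0 in KO than in WT.

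The second question was whether the knockout changed potassium channel genes. None of the 79 passed an adjusted p of 0.05 in cortex, hippocampus or cerebellum, in the average over the regions or in the test of unequal KO effects across regions. None of all 19572 rows passed in those fits (0% called). At an unadjusted p under 0.05 there were 8 of 79 in cortex (7.45% of all rows), 0 in hippocampus (2.11%), 13 in cerebellum (9.50%), 12 in the average (7.69%) and 5 in the difference between regions (4.97%). An exact permutation of 4 against 4 arrays, whose smallest possible 2-sided p is 0.029, gave 3, 0 and 2 of the 79 in the 3 regions at that unadjusted level. It reaches that level only where the groups do not overlap, so these counts are no check apart from the next ones. With that smallest p and so few rows at it, no row could pass adjustment. KO and WT arrays did not overlap for Kcnc4, Kcng4 and Kcnk9 in cortex (3.68% of all rows did not), for none in hippocampus (2.17%) and for Kcna3 and Kcne1l in cerebellum (3.50%). Of the 22 partner genes 0 passed after adjustment in any region, as of all rows. At an unadjusted p under 0.05 there were 3 in cortex, 0 in hippocampus and 4 in cerebellum, beside the same shares of all rows. The largest of these partner differences was that of Kcnip2 in cerebellum, at 1.08 (SE 0.32). Partners were not fitted without KO 3. The median size of the KO effect over the 79 was 0.17 in cortex, 0.09 in hippocampus and 0.17 in cerebellum, against 0.11, 0.08 and 0.12 over all rows.

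In cortex the smallest p belonged to Kcnc4, a Shaw-type A channel. It read 10.59, 11, 11.19 and 10.50 in KO 1 to KO 4 and 11.43, 11.55, 11.54 and 11.35 in WT, so that all KO arrays lie below all WT arrays. The difference was -0.65 (SE 0.15, n = 4 per group, adjusted p = 0.366 in the limma fit). The lowest KO arrays were KO 1 and KO 4, and without them it was -0.37 (adjusted p = 0.999). Without KO 3 alone it was -0.77 with an adjusted p of 0.033, the 1 case among the 79 that passed when a single array was left out. The leak channel Kcnk9 read 12.08, 12.18, 12.32 and 12.08 in KO and 12.57, 12.55, 12.73 and 12.56 in WT, a difference of -0.44 (SE 0.13, adjusted p = 0.431), and -0.35 without KO 1 and KO 4. The silent subunit Kcng4 read 8.82, 8.55, 8.64 and 8.95 in KO and 9.22, 9.07, 8.95 and 9.29 in WT. Its highest KO array equals the lowest WT array at the digits shown; the difference was -0.39 (SE 0.13, adjusted p = 0.544), and -0.53 without KO 1 and KO 4.

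The upward differences at an unadjusted p under 0.05 with all cortex arrays lay mainly in 2 arrays. Kcnb2, a Shab-type delayed rectifier, read 13.04, 10.82, 10.92 and 12.73 in KO 1 to KO 4 and 10.89, 11.03, 10.57 and 11.09 in WT. KO 1 and KO 4, the arrays that are high in olfactory bulb and some interneuron markers, are far above the rest, and KO 2 and KO 3 lie within the WT range. The difference was 0.98 (SE 0.35, adjusted p = 0.553) with all arrays and -0.03 (SE 0.25) without those arrays. Kcna4 had the same shape, at 11.79, 10.38, 10.34 and 11.53 in KO and 10.09 to 10.63 in WT, and so did Kcnd2, at 13.63, 12.59, 12.67 and 13.41 in KO and 12.53 to 12.70 in WT. Kcnj4, Kcnh6 and Kcnd2 differed by 0.55, 0.47 and 0.47 with all arrays and by 0.12, 0.09 and 0.02 without KO 1 and KO 4. Of the 8 genes at an unadjusted p under 0.05, 3 stayed so without these arrays: Kcnc4, Kcng4 and Kcnk9.

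In hippocampus none of the 79 had an unadjusted p under 0.05. The smallest belonged to Kcng2 (-0.24, SE 0.13), Kcnv2 (0.26, SE 0.14), Kcne4 (0.26, SE 0.15) and Kcng4 (-0.22, SE 0.13), each with an adjusted p of 1. Kcng2 read 8.14, 8.07, 8.24 and 8.15 in KO and 8.71, 8.37, 8.22 and 8.27 in WT, which overlap. Kcnv2 and Kcne4 are among the genes of low signal.

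In cerebellum the largest difference was that of Kcnc2, which read 9.48, 9.57, 11.32 and 8.58 in KO 1 to KO 4 and 6.53, 8.27, 9.21 and 7.64 in WT. KO arrays are higher on the whole, and KO 4 lies below WT 3. The difference was 1.82 (SE 0.42, n = 4 per group, adjusted p = 0.435), and 1.30 (adjusted p = 0.999) without KO 3. The mean over 12 thalamus and midbrain markers, a list set beside it after its values were seen, was 10.86, 10.97, 10.95 and 10.52 in KO and 9.99, 10.48, 10.93 and 10.39 in WT. In WT the arrays have the same order by this mean as by Kcnc2, and KO 4 is the lowest KO array in both. Other lists share these features: the mean over 10 striatum markers (10.50, 10.57, 10.71 and 10.34 in KO, 9.91, 10.10, 10.44 and 9.93 in WT) has the order of Kcnc2 in both genotypes, and that over 17 brainstem markers has its order in WT. Of the 12 markers 6 had the higher mean in KO and 0 had all KO arrays above all WT arrays; some of them, such as Rora, are also genes of the cerebellum itself. The part of tissue from outside the cerebellum in the difference of Kcnc2 was not tested. Kcnh5 had the same order of arrays within WT: it read 6.79, 8.74, 9.99 and 7.99 in WT and 9.86, 10.22, 11.44 and 8.17 in KO, a difference of 1.55 (SE 0.50, adjusted p = 0.435) and 1.04 without KO 3.

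The other cerebellar differences were smaller. Kcne1l, an accessory subunit, read 8.38, 8.29, 8.98 and 9.01 in KO and 7.86, 8.08, 8.06 and 8.19 in WT, which do not overlap, a difference of 0.62 (SE 0.17, adjusted p = 0.435) and 0.51 without KO 3. Kcna3, a Shaker-type channel, read 9.80, 10.14, 10.32 and 9.79 in KO and 9.69, 9.70, 9.58 and 9.47 in WT, a difference of 0.40 (SE 0.14). Kcna4 and Kcnt2, both low in cerebellum, differed by 0.79 and 0.74, and by 0.47 and 0.44 without KO 3. Kcnj14, a strong inward rectifier, went downward, at 9.44, 9.71, 9.20 and 9.58 in KO and 9.99, 10.02, 9.89 and 9.70 in WT, a difference of -0.42 (SE 0.14). All 13 genes at an unadjusted p under 0.05 kept their direction without KO 3 with a smaller difference, and 5 of them stayed at that level: Kcna3, Kcnc2, Kcne1l, Kcnh5 and Kcnj14. Without KO 3 there were 8 such genes among the 79, where 3.52% of all rows were. Besides those 5 they were Kcne2, Kcnj13 and Kcnk13, all lower in KO.

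**Figure D4:**
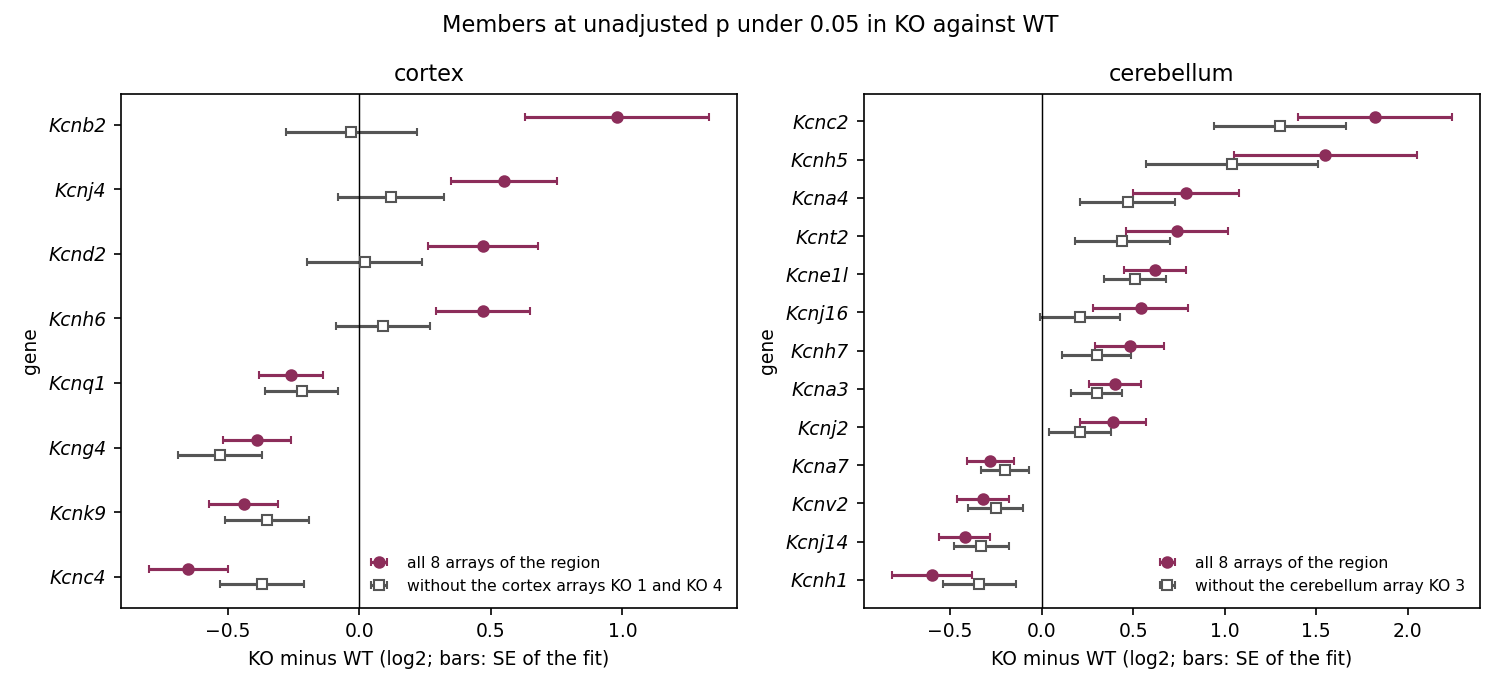
Difference between KO and WT (log2, horizontal axis) of the genes at an unadjusted p under 0.05 in cortex (left, 8 genes) and cerebellum (right, 13 genes), genes on the vertical axis. Filled circles use all 8 arrays of the region and open squares leave out the arrays that stood apart; bars are standard errors of the fit. Kcnb2 falls from 0.98 to -0.03 in cortex, and Kcnc2 from 1.82 to 1.30 in cerebellum; no gene passed the adjusted threshold.

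The glial channel Kcnj10 differed between KO and WT by 0.00 (SE 0.28) in cortex, by -0.14 (SE 0.28) in hippocampus and by 0.49 (SE 0.28, adjusted p = 0.578) in cerebellum. In cerebellum it read 14.81, 14.57, 15.96 and 14.73 in KO and 14.50, 14.42, 14.89 and 14.29 in WT. KO 3 stands alone at the top, and without it the difference was 0.18 (SE 0.26). Kcnj16 read 9.94, 10.10, 11.39 and 10.19 in KO and 9.74, 9.60, 10.43 and 9.70 in WT, a difference of 0.54 (SE 0.26) and 0.21 (SE 0.22) without KO 3. Astrocyte markers in cerebellum averaged 13.32 to 13.63 in KO and 13.07 to 13.32 in WT, with 8 of 10 higher in the mean of KO. All 11 oligodendrocyte markers were higher in the mean of KO. Their list mean was 12.44, 12.45, 14.09 and 12.38 in KO 1 to KO 4 and 11.98 to 12.57 in WT. Only KO 3 lies above the WT range there. The part of these cells in the values of both genes was not tested.

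Averaged over the regions, the smallest p belonged to Kcng4 (-0.24, SE 0.08), Kcnj14 (-0.24, SE 0.08), Kcnk9 (-0.21, SE 0.08) and Kcna4 (0.45, SE 0.17). Each had an adjusted p of 0.642. Without cortex KO 1 and KO 4 these values were -0.29, -0.29, -0.18 and 0.23, and without cerebellum KO 3 they were -0.21, -0.21, -0.19 and 0.34. In the test of whether the KO effect differs between regions, Kcnc4 (F 8.58) and Kcnc2 (F 6.88) came first, each with an adjusted p of 0.931. The KO minus WT difference of Kcnc4 was -0.65 in cortex (-0.37 without KO 1 and KO 4) and 0.22 in cerebellum (SE 0.15; 0.09 without KO 3). In cerebellum its KO arrays read 10.65, 10.41, 10.97 and 10.28 and its WT arrays 10.34, 10.42, 10.49 and 10.19, which overlap.

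Kcnj13 and Kcne2, an inward rectifier and an accessory subunit of the choroid plexus epithelium, varied widely between animals of a group. Kcnj13 read 9.68, 10.44, 12.02 and 12.19 in WT hippocampus, 14.10, 11.72, 9.82 and 8.76 in KO hippocampus, 11.18, 13.63, 8.58 and 10.59 in WT cerebellum and 9.34, 8.96, 12.70 and 8.53 in KO cerebellum. The means over 7 choroid plexus markers in those arrays were 9.40, 9.79, 11.30 and 11.41, then 12.52, 10.69, 9.59 and 8.91, then 10.63, 11.85, 8.80 and 10.24, and 8.83, 8.77, 11.43 and 8.77. The arrays with the highest marker mean in each of these groups are also those with the highest Kcnj13. Kcne2 read 9.92 in hippocampus KO 1, 9.38 in cerebellum WT 2 and 9.22 in cerebellum KO 3, the same arrays, and 6.19 to 8.17 in all others. Neither gene was called between regions or genotypes. In cerebellum the KO and WT means over all arrays were 9.88 and 10.99 for Kcnj13, and 7.05 and 7.74 for Kcne2. Without KO 3 the KO minus WT difference was -2.05 (SE 0.91) for Kcnj13 and -1.42 (SE 0.55) for Kcne2. Both then had an unadjusted p under 0.05 and an adjusted p of 0.999 in the limma fit.

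**Figure D5:**
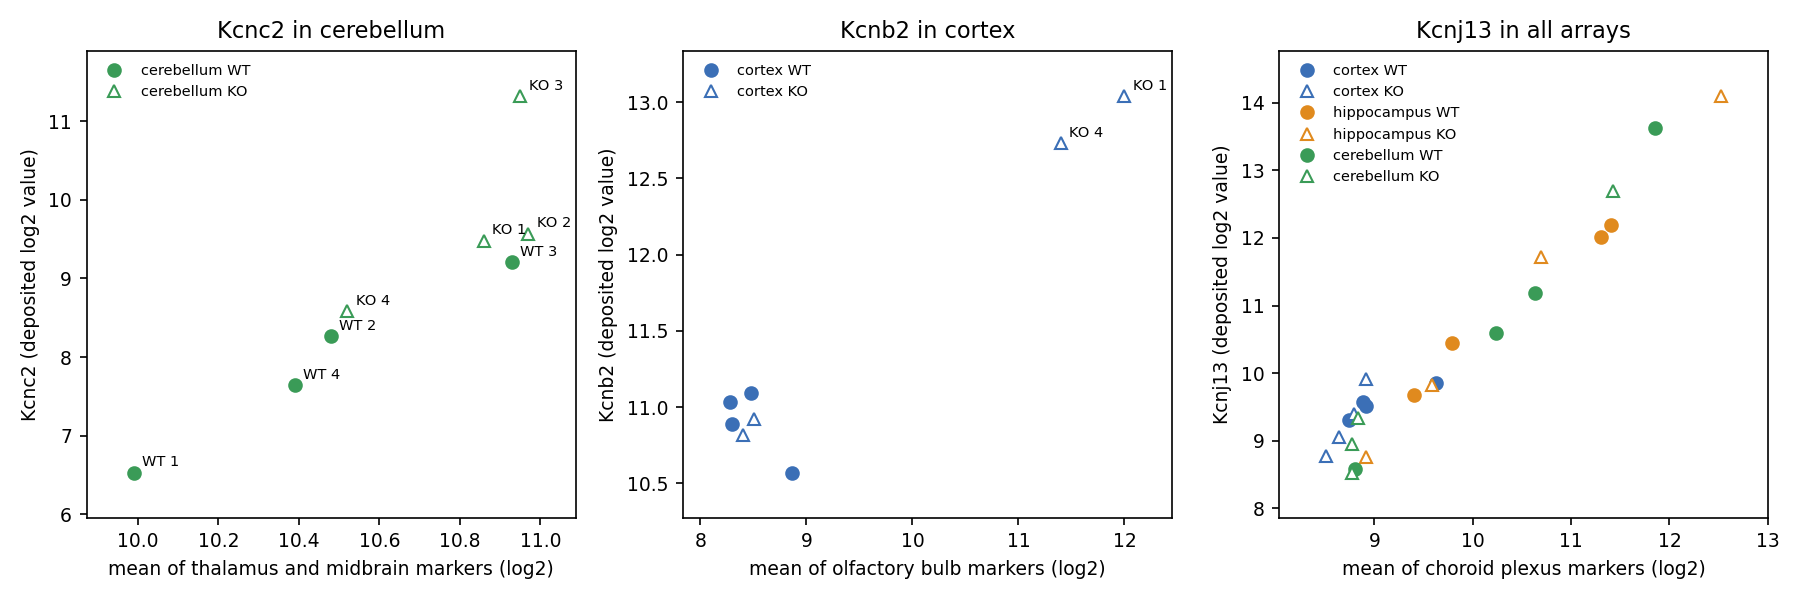
Deposited log2 value of a channel gene (vertical axis) against the mean of a marker list (log2, horizontal axis), 1 point per array, circles for WT and triangles for KO. Left, Kcnc2 and thalamus and midbrain markers in the 8 cerebellum arrays; middle, Kcnb2 and olfactory bulb markers in the 8 cortex arrays, with KO 1 and KO 4 at 13.04 and 12.73; right, Kcnj13 and choroid plexus markers in all 24 arrays, highest in hippocampus KO 1.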

How the data were processed

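Total RNA of 24 brain samples was measured on 1 array each. The authors made the deposited log2 values with RMA, per the submitters' processing notes; RMA corrects background, normalizes between arrays and summarizes probes. The sources used here do not give its version, log base or build, and the scale was taken as log2 from the range of the values (3.89 to 19.14, array medians 8.72 to 8.82). In 291 rows, 1 of them a potassium channel gene (Kcnk1), an array exceeded 16, the log2 ceiling of a 16-bit scanner; the sources used here do not say how such values arose, so folds are those of deposited values only. The labels' protocols name both biotin and Cy3, so the labelling is not settled. RMA shrinks differences among dim probes, and no background reading was used to judge detection. Of 22206 rows, 19572 had 1 gene and were tested; 2634 without were left out. The row of the knocked-out gene is not analysed here.

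Values were used as deposited in limma 3.58.1 (R 4.3.3; lmFit, eBayes) with 6 group means over 24 arrays, 18 residual and 6.9 prior degrees of freedom. P-values are 2-sided and adjusted by Benjamini-Hochberg over all rows at 0.05; region pairs also needed a 2-fold difference. Errors are standard errors of the fit unless marked SD. Groups hold 4 arrays, 1 per animal, and their number limits the precision; within a group arrays correlated at 0.98 to 0.9958.

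Animal numbers repeat across regions within a genotype, per the labels, and pair the regions by animal. Deviations of 2 regions of 1 animal correlated at -0.191 to 0.297, above 0.1 in 6 of 24 pairs. WT 1 and KO 1 are different animals.

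The genes, partner list and marker lists were chosen with earlier results of these data known. Full values were planned for the 6 genes of largest difference each way per WT region pair, the 4 of smallest p per KO comparison, the smallest p per subfamily, and a list of further genes written with those same results known; others named, such as Kcnj13 and Kcne2, were chosen after their values were seen. Alternatives were centring, quantile normalization, a filter on dim rows, another variance model, array weights, row choice, fits of the 8 arrays compared, no fold minimum, blocks and leaving out arrays.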

Additional observations from a re-analysis of the deposited data

Results flagged for a closer look

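A group of 4 arrays was looked at again where the gap between its highest or lowest array and the next was too large a share of its range by Dixon's critical value. Over 39 genes and 6 groups, 17 of 234 groups met this, or 7.26%; chance alone gives about 1 in 20, here 12. In 6 of the 17 the array was cerebellum KO 3, the array that is high in brainstem and oligodendrocyte markers: Kcnj10 at 15.96 (other KO arrays 14.57 to 14.81) and Kcnq5 at 10.18 (9.46 to 9.53) were high, and Kcnd2 at 13.62 (14.70 to 14.80), Kcnk10 at 12.26 (13.72 to 13.98), Kcnj9 at 10.37 (11.59 to 11.82) and Kcnt1 at 11.92 (12.96 to 13.06) were low. The last 4 are genes that were higher in WT cerebellum than in WT hippocampus.

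In WT cerebellum, Kcnc1 at 15.08 (others 15.68 to 15.76) and Kcnj3 at 13.36 (13.61 to 13.62) were low in WT 2, and Kcng3 at 7.41 (6.91 to 6.96) and Kcnj16 at 10.43 (9.60 to 9.74) were high in WT 3. Kcng2 was low in cerebellum KO 1, at 7.75 (8.10 to 8.14).

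In hippocampus, Kcnb2 was low in KO 3, at 10.14 (10.70 to 10.81). Kcnk10 was low in WT 2, at 10.59 (10.73 to 10.76), and Kcnq3 was high in WT 3, at 13.28 (13.10 to 13.13). In cortex, Kcnk9 was high in WT 3, at 12.73 (12.55 to 12.57), and Kcnn2 low in the same array, at 12.69 (13.37 to 13.50). Kcne4 was high in cortex KO 3, at 6.25 (5.99 to 6.04).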

How the results depend on the processing

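Without the 2-fold minimum, calls in WT rose from 6 to 13 for hippocampus against cortex and from 32 to 42 for cerebellum against cortex. For cerebellum against hippocampus they rose from 29 to 48. In KO animals these 3 counts went from 9 to 17, from 29 to 43 and from 28 to 44. The share of all rows called without the minimum was not computed. Leaving out 1 array at a time gave 5 to 8, 31 to 32 and 29 to 30 calls in the 3 WT region pairs (hippocampus and cerebellum against cortex, then cerebellum against hippocampus), 7 to 10, 28 to 29 and 26 to 30 in KO animals, and 47 to 51 for any region. The KO effect in cortex went from 0 to 1 call without cortex KO replicate 3 (range 0 to 1; Kcnc4), and in hippocampus and cerebellum stayed at 0. WT and KO animals of 1 number share only that number; with it as a replicate block, the KO effect in cerebellum had 1 call (Kcnc2, 1.82, adjusted p = 0.0149). Animal as a random block (correlation 0.00646) changed no call. Kcnb2 in cortex turned from 0.98 to -0.03 without KO 1 and KO 4. Of 2718 alternatives for 79 results on single genes, 2704 kept direction and side of the threshold, 4 were weaker, 9 stronger and 1 reversed; Kcnj6 between regions crossed the threshold most often, for example with an adjusted p of 0.00678 without cerebellum KO 3, against 0.054. The cause of these shifts was not tested, beyond the smaller number of arrays or the dropped minimum. Signal over background limits the 10 genes that are dim in the mean of all arrays, and 5 more of the called genes that are dim in WT cerebellum.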

Other observations

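Cerebellum KO 3 held the highest of the 8 cerebellum values for 22 of the 79 genes and the lowest for another 22, or 27.8% each; over all rows these shares were 23.8% and 27.9%. In cortex, KO 1 held the lowest value for 24 genes (30.4%, against 17.1% of all rows). It held the highest for 16 (20.3%), which is about the same share as over all rows. In hippocampus, KO 4 held the highest value for 17 (21.5%, against 19.4% of all rows).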
